A study of Mus musculus with 10 samples.

Results

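Cytosolic sensors of DNA and RNA are the proteins with which a cell detects nucleic acid inside itself, and 9 mouse genes of this kind were considered in splenic CD11c+ dendritic cells (DCs). Each gene was represented by the probe set that names this gene alone and has the highest mean over the 10 arrays, a choice that used no comparison between groups. By this rule 8 of the 9 genes had values, out of 22180 genes in all: Ddx58, Ifih1, Dhx58, Mavs, Zbp1, Ifi204, Ifi205 and Aim2. All 8 also passed the filter on low values, like 13371 of the 22180 genes. Trex1, a DNA exonuclease of the cytosol, stood only in a probe set shared with Atrip and was not analysed here. Each of the 8 genes had 1 probe set of its own. Ifi204 also occurred in a probe set shared with Ifi211, which was not used.

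Expression was measured on Affymetrix Mouse Gene 2.0 ST arrays, 1 per sample, as log2 intensities. The DCs were selected from spleen with magnetic beads against CD11c, 4 h after the mice were injected with 100 µg CpG, unmethylated DNA that is recognised by the endosomal receptor Tlr9, or with vehicle. The mice were wild-type (WT) or lacked both C3ar1 and C5ar1, the receptors for the complement fragments C3a and C5a (C3ar1-/-C5ar1-/-, here DKO). The 4 groups were WT unstimulated (vehicle, n = 2), WT CpG (n = 3), DKO unstimulated (vehicle, n = 2) and DKO CpG (n = 3). Strain background, age and sex were not given in the sources used here, nor was it stated whether each array came from its own mouse, so p-values measure the spread between these samples only, which may be technical. The DCs were selected by 1 surface marker, and in such bulk samples fewer cells of a type and less RNA per cell cannot be told apart.

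The RIG-I-like receptors bind double-stranded or uncapped RNA in the cytosol. RIG-I (Ddx58) and MDA5 (Ifih1) then engage Mavs, an adaptor on the mitochondrial outer membrane, which activates the kinases that lead to type I interferon. LGP2 (Dhx58) is the third helicase of the family, lacks the domains that signal to Mavs and modulates the others. Zbp1 binds left-handed nucleic acid and can start cell death through Ripk3. Aim2, Ifi204 and Ifi205 belong to the Ifi200 (PYHIN) family of DNA-binding proteins, and Aim2 nucleates an inflammasome on cytosolic DNA. Most of these sensor genes are known as interferon-stimulated genes, so that exposure to interferon raises the sensors themselves.

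Promoter sequences are shown because the genes fell into those that rose after CpG and those that did not. Interferon-activated factors bind repeats of GAAA, the core of the interferon-stimulated response element. RefSeq promoter entries (GRCm38.p6) matched 5 of the 8 genes, while Dhx58, Zbp1 and Ifi204 were not matched. The 250 bases before the start are given 5′ to 3′ in the direction of the gene, and capitals mark a repeat of GAAA, on either strand, separated by 1 to 3 bases. The first set holds the genes that rose after CpG: Ddx58 at chr4:40239826-40240075 on the minus strand, Ifih1 at chr2:62646256-62646505 on the minus strand and Ifi205 at chr1:174031756-174032005 on the minus strand.
Ddx58: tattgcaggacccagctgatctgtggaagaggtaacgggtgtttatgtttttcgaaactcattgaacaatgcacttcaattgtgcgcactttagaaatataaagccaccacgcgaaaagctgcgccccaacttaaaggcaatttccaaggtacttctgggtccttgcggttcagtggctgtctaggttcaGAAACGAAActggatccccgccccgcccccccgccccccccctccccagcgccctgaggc
Ifih1: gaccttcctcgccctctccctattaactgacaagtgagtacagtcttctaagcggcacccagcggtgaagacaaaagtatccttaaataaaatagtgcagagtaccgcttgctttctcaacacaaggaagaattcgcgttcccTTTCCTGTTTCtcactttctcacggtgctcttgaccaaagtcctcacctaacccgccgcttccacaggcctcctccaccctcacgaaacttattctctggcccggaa
Ifi205: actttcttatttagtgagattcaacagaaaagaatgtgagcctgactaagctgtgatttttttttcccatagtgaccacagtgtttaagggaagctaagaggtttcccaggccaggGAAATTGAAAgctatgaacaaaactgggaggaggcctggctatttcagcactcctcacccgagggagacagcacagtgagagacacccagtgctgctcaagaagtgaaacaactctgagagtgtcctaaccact
The other set holds Mavs, at chr2:131233813-131234062 on the plus strand, and Aim2, at chr1:173420354-173420603 on the plus strand, which did not rise.
Mavs: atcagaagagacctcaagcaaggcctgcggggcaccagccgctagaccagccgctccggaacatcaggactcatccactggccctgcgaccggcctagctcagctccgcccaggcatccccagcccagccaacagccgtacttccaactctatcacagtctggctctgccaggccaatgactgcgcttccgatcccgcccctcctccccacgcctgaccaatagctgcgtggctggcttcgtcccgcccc
Aim2: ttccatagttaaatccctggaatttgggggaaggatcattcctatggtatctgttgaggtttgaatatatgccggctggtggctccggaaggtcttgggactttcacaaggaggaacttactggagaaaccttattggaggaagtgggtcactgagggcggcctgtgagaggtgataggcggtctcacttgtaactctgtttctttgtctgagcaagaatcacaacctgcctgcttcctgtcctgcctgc

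The Ifi205 promoter held GAAANNGAAA on the strand of the gene, 134 to 125 bases before the start. The Ddx58 promoter held GAAANGAAA on the strand of the gene, 60 to 52 bases before the start. The Ifih1 promoter held GAAANNNGAAA on the opposite strand, 107 to 97 bases before the start. In the promoters of Mavs and Aim2 none of these letters occurred, and neither TTCNNNGAA, the core of the gamma-activated site, nor the NF-kB site matched in any of the 5. The motifs were searched on both strands, can overlap one another, and the spacings of 1 and 3 bases were added after these promoters had been read. Of the 5 promoters 1 held the spacing of 2 bases, and 3 held any of the 3 spacings. The split of the marked repeats between the 2 sets was thus drawn from these same sequences and is not a test. Among 27025 genes with promoter entries of this length, GAAANNGAAA occurred in 3.46%, GAAANGAAA in 3.13%, GAAANNNGAAA in 2.75% and any of the 3 in 8.59%, against 8.13% for TTCNNNGAA and 8.23% for the NF-kB site. A match describes the letters in this window and is not a bound site.

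The labels were checked against the arrays. C3ar1 measured 5.27 to 5.64 in the 5 DKO arrays and 5.80 to 6.59 in the 5 WT arrays, and C5ar1 measured 4.42 to 4.99 and 5.51 to 7.32, beside array medians of 5.5 to 5.56. Neither difference passed the test after CpG (limma, adjusted p = 0.0611 for C3ar1 and 0.0732 for C5ar1), and whether the probes lie in the deleted parts is not given. The defining markers of conventional DCs were high, with Itgax, which encodes CD11c, at 10.72 to 11.89 and all 7 of 7 markers above the median on all arrays. Markers of other cells moved between arrays, and some conventional DC markers moved with CpG, as given below. The mean level of 9 tested neutrophil markers (3 above the array median on all arrays), each gene centred over the arrays, was 0.21 to 0.97 in WT unstimulated, -0.01 to 1.71 in WT CpG, -1.49 to -0.84 in DKO unstimulated and -1.66 to 0.02 in DKO CpG. Red pulp macrophage markers (11 of 11 above the median on all arrays) ranged from -1.48 to 0.55 and were low in DKO unstimulated 2 and DKO CpG 3. Y-linked genes were high, at 7.33 to 7.93, in 3 of the arrays (DKO unstimulated 1, DKO CpG 1 and DKO CpG 2), and 3.21 to 3.68 in the other 7. A labelling kit is named for a first batch of samples without saying which, so the title series (a first series of 7 arrays, and a second of WT CpG 3, DKO unstimulated 2 and DKO CpG 3) served as a stand-in.

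In WT DCs CpG raised 6 of the 7 genes for nucleic acid sensors and lowered the adaptor gene Mavs. Of the 8 genes, 6 rose and 1 fell, where 8.24% of all tested genes rose and 13.3% fell (limma, adjusted p under 0.05 over 13371 genes). The median log2 change of the 8 genes was 1.79, beside -0.04 over all tested genes. Ifi204, Zbp1, Ddx58, Ifih1, Dhx58 and Ifi205 rose by 2.21-fold to 6.06-fold. Mavs fell by 0.93 on the log2 scale, and Aim2 did not pass the test.

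Among the RNA helicases, Ddx58 measured 8.29 and 8.29 on the log2 scale in the WT unstimulated arrays and 10.23, 10.04 and 10.68 in the WT CpG arrays. All 3 stimulated arrays lay well above the unstimulated pair, and the log2 change was 2.03 ± 0.30 (SE), or 4.08-fold (limma, adjusted p = 0.00107). Ifih1 went from 9.64 and 9.22 to 11.18, 11.06 and 11.53, again without overlap. Its log2 change was 1.83 ± 0.27, or 3.55-fold (limma, adjusted p = 0.00106). Dhx58 went from 7.81 and 7.56 to 9.35, 9.21 and 9.73, with a log2 change of 1.75 ± 0.29, or 3.35-fold (limma, adjusted p = 0.00188). The 95% confidence intervals of the 3 helicases overlapped, at 1.36 to 2.70 for Ddx58, 1.23 to 2.43 for Ifih1 and 1.11 to 2.38 for Dhx58, and WT CpG 3 was the highest array for each.

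Mavs, on which both signalling helicases converge, moved the other way. It measured 7.72 and 7.61 in WT unstimulated DCs and 6.71, 6.64 and 6.87 in WT CpG DCs, so that the stimulated arrays lay below both controls. The log2 change was -0.93 ± 0.17, a 1.90-fold lower level (limma, adjusted p = 0.00319). After CpG the receptors were therefore higher and their shared adaptor lower in the same 3 arrays.

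Zbp1 measured 8.67 and 8.50 in WT unstimulated DCs and 10.96, 10.76 and 11.13 after CpG. It rose by 2.36 ± 0.37, or 5.15-fold (limma, adjusted p = 0.00151). Ifi204 measured 7.92 and 7.56 before and 10.08, 10.28 and 10.66 after CpG. Its log2 change of 2.60 ± 0.31, or 6.06-fold, stood at rank 24 from the top of the 13371 genes (limma, adjusted p = 3.24e-04). Ifi205 measured 10.77 and 10.84 before and 11.94, 11.90 and 12.01 after CpG, a smaller rise of 1.15 ± 0.16, or 2.21-fold, with little spread between arrays (limma, adjusted p = 8.90e-04).

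Aim2, the inflammasome sensor of the family, did not pass the test. It measured 9.60 and 9.54 in WT unstimulated DCs and 9.10, 8.86 and 9.84 after CpG, so that 1 stimulated array lay above the controls and the others below. The log2 change was -0.30 ± 0.26, with a 95% confidence interval of -0.88 to 0.27 (limma, adjusted p = 0.475). A rise as large as that of Ifi205 lies outside this interval.

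Markers of some cell types moved with CpG as well. Of 7 conventional DC markers 2 rose and 4 fell in WT, and 1 rose and 2 fell in DKO. All tested genes rose in 8.24% and fell in 13.3% of cases in WT, and in 4.54% and 5.76% in DKO. Itgax went from 11.57 and 11.75 to 10.91, 10.72 and 11.09 in WT. The mean centred level of 6 cDC1 markers was 0.78 to 0.88 in WT unstimulated and -0.81 to -0.59 in WT CpG arrays, and 0.48 to 0.79 and -0.37 to -0.20 in DKO. That of 8 B cell markers was 0.32 to 0.41 and -0.26 to -0.16 in WT, and 0.16 to 0.51 and -0.60 to 0.04 in DKO. That of 7 cDC2 markers was 0.20 to 0.27 and -0.31 to -0.15 in WT, and 0.18 to 0.44 and -0.28 to 0.15 in DKO. The level of 7 monocyte markers was 0.33 to 0.38 and -0.26 to -0.05 in WT, while in DKO the ranges overlapped, at -0.47 to 0.37 and -0.48 to 0.21. The mean centred level of 9 plasmacytoid DC markers stayed between -0.33 and 0.38 over all arrays, but single markers moved in both directions. With CpG in WT they changed by -1.32 to 0.85 on the log2 scale, with 1 called higher and 2 called lower. The mean centred level of 6 natural killer cell markers was -0.22 to -0.20 and -0.03 to 0.42 in WT. In DKO it was -1.04 to 0.24 and -0.64 to 0.76. That of 11 red pulp macrophage markers was 0.46 to 0.55 and 0.12 to 0.30 in WT. In DKO it was -1.21 to 0.33 and -1.48 to 0.45. No marker of these 2 lists was called with CpG in either genotype. The part of these cells in the CpG effects on the sensors was not tested beyond the fits with neutrophil or macrophage markers as a covariate.

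**Figure D1:**
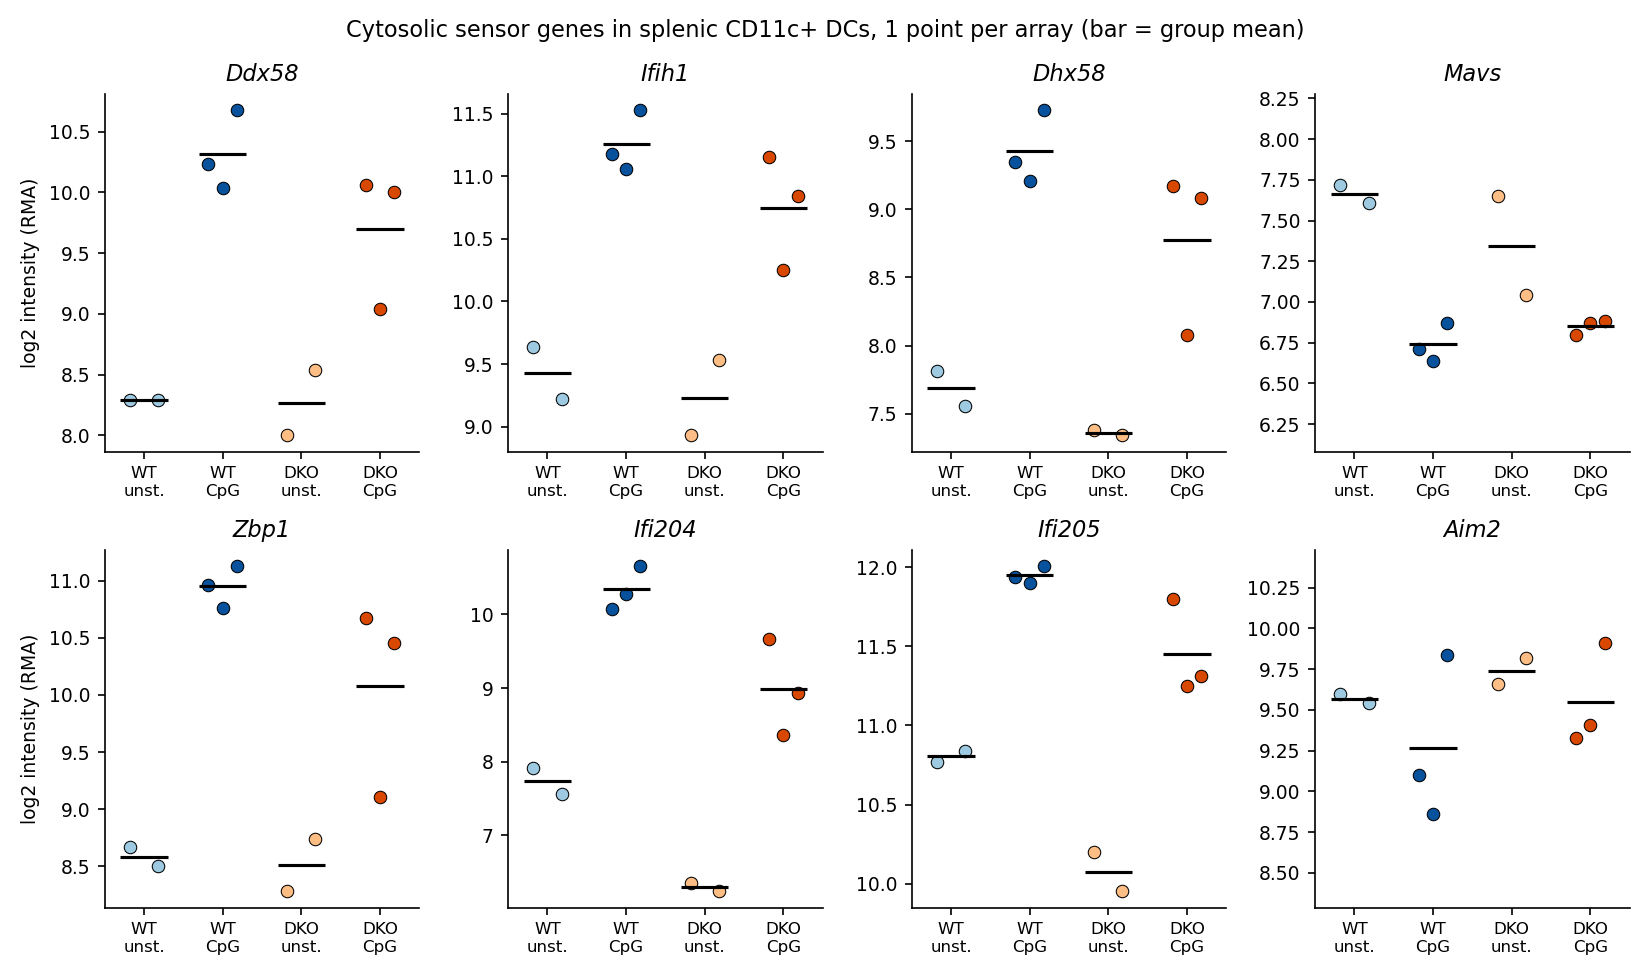
Log2 intensity (y axis, own scale in each panel) of the 8 sensor genes in each array, grouped as WT unstimulated, WT CpG, DKO unstimulated and DKO CpG (x axis); points are arrays and bars are group means. In WT DCs the stimulated arrays lie above the unstimulated ones for 6 genes and below them for Mavs. The DKO arrays of Dhx58, Ifi204 and Ifi205 lie below the WT arrays in both states, as in 2.03% of tested genes, without passing the test.

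DKO DCs raised the same 6 sensors. Ddx58, Ifih1, Dhx58, Zbp1, Ifi204 and Ifi205 all passed the test in DKO DCs, where 4.54% of tested genes rose and 5.76% fell, and 3.96% of tested genes rose in both genotypes. The median log2 change of the 8 genes was 1.42, beside -0.04 over all tested genes. Ifi204 rose 6.46-fold and the others 2.60-fold to 2.95-fold, while Mavs and Aim2 did not pass.

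Ifi204 measured 6.36 and 6.24 in DKO unstimulated DCs and 9.66, 8.37 and 8.94 in DKO CpG DCs. The stimulated arrays differed by more than 1 unit of log2, yet all lay far above the unstimulated pair, and the log2 change was 2.69 ± 0.31 (limma, adjusted p = 8.97e-04), at rank 14 from the top. Ifi205 measured 10.20 and 9.95 before and 11.80, 11.25 and 11.31 after CpG, a change of 1.38 ± 0.16 (limma, adjusted p = 0.00106). These 2 genes were also called in the alternative settings and with any 1 array left out.

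The RNA helicases and Zbp1 rose with more spread. Ddx58 measured 8.0 and 8.54 in DKO unstimulated DCs and 10.06, 9.04 and 10 in DKO CpG DCs, a change of 1.43 ± 0.30 (limma, adjusted p = 0.0152). Ifih1 measured 8.93 and 9.53 before and 11.15, 10.25 and 10.84 after CpG, a change of 1.51 ± 0.27 (limma, adjusted p = 0.00758). Dhx58 measured 7.38 and 7.34 before and 9.17, 8.08 and 9.08 after CpG, a change of 1.42 ± 0.29 (limma, adjusted p = 0.0126). In none of the 3 did the groups overlap, and the second DKO CpG array was the lowest stimulated one each time.

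Zbp1 measured 8.28 and 8.74 before and 10.67, 9.11 and 10.45 after CpG in DKO DCs, a change of 1.56 ± 0.37 (limma, adjusted p = 0.0254). Its second DKO CpG array lay nearer to the unstimulated pair than to the other stimulated arrays. These 4 calls depended on single arrays. Without DKO unstimulated 1, Ddx58 (adjusted p = 0.106), Ifih1 (0.0608), Dhx58 (0.0596) and Zbp1 (0.141) no longer passed, with log2 changes of 1.15 to 1.44. Without DKO unstimulated 2, Dhx58 (0.0821) and Zbp1 (0.0794) were lost, and without DKO CpG 1, Ddx58 (0.0518) and Zbp1 (0.0737) were lost. A fit of the DKO arrays alone also lost Ddx58 (0.0745), Dhx58 (0.0685) and Zbp1 (0.109), and trend and robust moderation lost Zbp1 (0.0565).

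Mavs measured 7.65 and 7.04 in DKO unstimulated DCs and 6.80, 6.87 and 6.88 after CpG. The stimulated arrays were below both controls, as in WT, but the controls were far apart, and the change of -0.50 ± 0.17 did not pass (limma, adjusted p = 0.0868). Without DKO unstimulated 2 the change was -0.80 and passed (limma, adjusted p = 0.0225), as did a change of -0.52 with a covariate for the Y-linked signal (0.0418) or the macrophage markers (0.0479). Aim2 measured 9.66 and 9.82 before and 9.33, 9.41 and 9.91 after CpG, a change of -0.19 ± 0.26 with an interval of -0.76 to 0.39 (limma, adjusted p = 0.724).

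**Figure D2:**
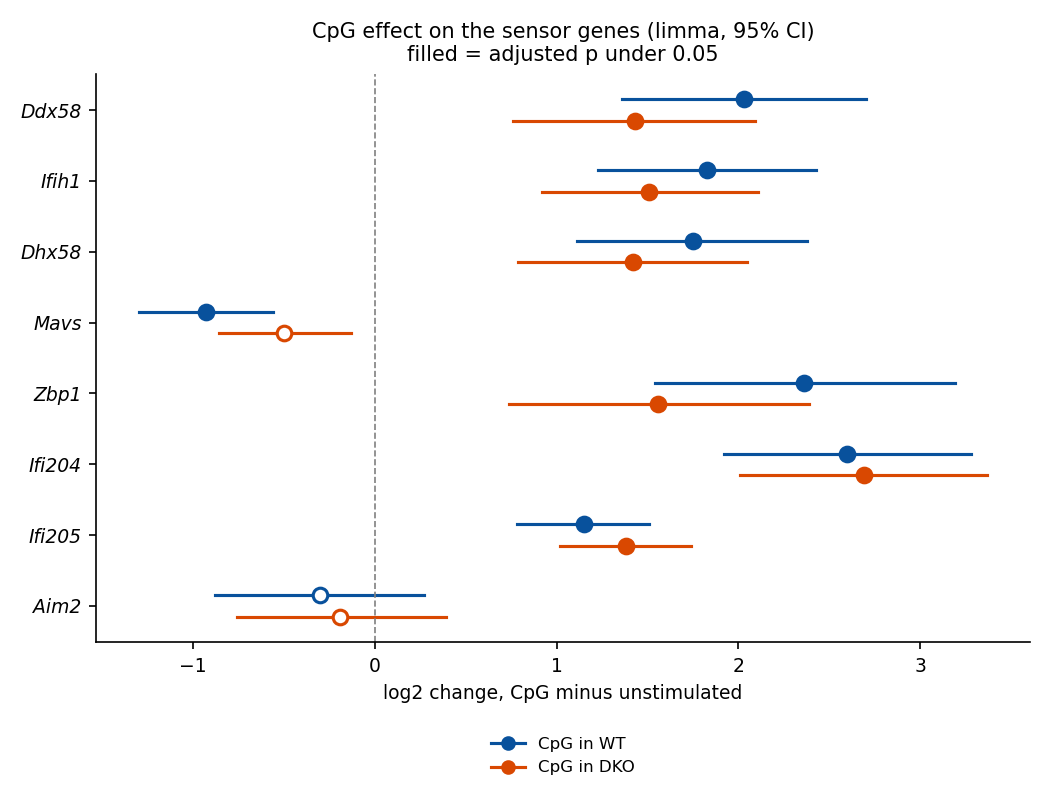
Log2 change after CpG (x axis) of each sensor gene (y axis) in WT and DKO DCs, with 95% confidence intervals from limma; filled points passed an adjusted p of 0.05 and open points did not. The 6 rising sensors lie between 1.15 and 2.69, Mavs lies below 0 in both genotypes and passed in WT, and both intervals of Aim2 include 0.

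The title series can be compared for each effect where both groups are present. In the first series the 6 rising genes changed by 1.11 to 2.44 with CpG in WT and by 1.25 to 2.66 in DKO, and in the second series by 1.31 to 2.70 in DKO. Each series holds 1 to 2 arrays a group, so these are values without a test. Mavs changed by -0.82 in the first series and -0.16 in the second series in DKO DCs.

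Among unstimulated DCs no sensor passed the test between genotypes, and Dhx58, Ifi204 and Ifi205 had lower values in both DKO arrays than in both WT arrays. The 7 genes other than Aim2 had negative differences, and their size was largest for Ifi204 and Ifi205. None of the 8 was called, where 0.00748% of all tested genes, a single gene, was called in either direction (limma), and 2 of the 8 had an unadjusted p under 0.05, where 4.63% of all tested genes did. The median log2 difference of the 8 genes was -0.26, beside 0.01 over all genes.

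Ifi204 measured 6.36 and 6.24 in DKO unstimulated DCs against 7.92 and 7.56 in WT unstimulated DCs, and both DKO arrays lay more than 1 log2 unit below both WT arrays. The difference was -1.44 ± 0.34 with a 95% confidence interval of -2.19 to -0.69 (limma, adjusted p = 0.819), at rank 30 from the bottom. Ifi205 measured 10.20 and 9.95 in DKO against 10.77 and 10.84 in WT, a difference of -0.73 ± 0.18 with an interval of -1.13 to -0.33 (limma, adjusted p = 0.862). Dhx58 measured 7.38 and 7.34 against 7.81 and 7.56, without overlap, and its difference of -0.33 had an interval of -1.02 to 0.36. Groups of 2 and 2 failed to overlap with DKO lower in 15.9% of all tested genes. Aim2 was the other gene without overlap, with DKO higher, as in 18.3% of tested genes, and its difference of 0.17 had an interval of -0.46 to 0.80.

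For the other sensors the unstimulated genotypes interleaved. The DKO minus WT difference was -0.02 for Ddx58 (interval -0.75 to 0.71), -0.19 for Ifih1 (-0.85 to 0.46), -0.08 for Zbp1 (-0.98 to 0.83) and -0.32 for Mavs (-0.72 to 0.08). Intervals of this width do not show equal levels.

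After CpG the 6 sensors that had risen had lower means in DKO than in WT, again without passing the test. None of the 8 genes was called, where 0.120% of tested genes were called (limma). 5 genes had an unadjusted p under 0.05, all with DKO lower, where 5.83% of tested genes did in that direction. The median log2 difference of the 8 genes was -0.56, beside 0.01 over all genes. Dhx58, Zbp1, Ifi204 and Ifi205 did not overlap between genotypes, with DKO lower, where 7.58% of tested genes did so.

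Ifi204 showed the largest difference of the 8. Its DKO CpG arrays measured 9.66, 8.37 and 8.94, all below the lowest WT CpG array at 10.08, and the difference was -1.35 ± 0.28 (interval -1.96 to -0.74), a 2.54-fold lower level (limma, adjusted p = 0.0716), at rank 44 from the bottom. A block for the title series made it pass (-1.35, limma, adjusted p = 0.0385), as did a covariate for the Y-linked signal (-1.44, adjusted p = 0.0294). These settings split the DKO arrays alike, since the 3 arrays with high Y-linked signal are the DKO arrays of the first series. No WT array had a high Y-linked signal, so that covariate is tied to genotype. A covariate for the neutrophil markers gave -1.49 (adjusted p = 0.191), and 1 for the macrophage markers gave -1.33 (adjusted p = 0.0521). Leaving out single arrays gave -1.68 to -1.04, and the call was made without DKO CpG 1 (adjusted p = 0.0109).

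Ifi205 measured 11.80, 11.25 and 11.31 in DKO CpG DCs against 11.94, 11.90 and 12.01 in WT CpG DCs. The difference was -0.50 ± 0.15 with an interval of -0.82 to -0.17 (limma, adjusted p = 0.160), and it passed with the Y-linked covariate (-0.65, adjusted p = 0.0418) and without DKO CpG 1 (-0.67, adjusted p = 0.0343). A block for the title series gave -0.50 (limma, adjusted p = 0.108), a covariate for the neutrophil markers -0.37 (0.555) and 1 for the macrophage markers -0.45 (0.156). Zbp1 differed by -0.88 ± 0.33 (interval -1.61 to -0.14, adjusted p = 0.267), Dhx58 by -0.66 ± 0.26 (-1.22 to -0.09, adjusted p = 0.276) and Ddx58 by -0.62 ± 0.27 (-1.21 to -0.02, adjusted p = 0.327), all by limma. Ifih1 differed by -0.51 ± 0.24, with an interval of -1.04 to 0.03. With a covariate for neutrophil markers Ddx58 and Ifih1 had -1.10 and -0.87, and Dhx58 -1.05. These were the largest sizes among the 11 settings other than leaving out 1 array. The smallest sizes among those settings were -0.34 for Ddx58, -0.32 for Ifih1 and -0.55 for Dhx58. For Ddx58 and Ifih1 the first DKO CpG array lay among the WT arrays.

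Mavs and Aim2 differed by 0.11 (interval -0.21 to 0.44) and 0.28 (interval -0.23 to 0.79) after CpG, with overlapping groups. A 2-fold higher level in DKO, which is 1 on the log2 scale, lies outside both intervals.

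Neutrophil, red pulp macrophage and Y-linked signals differed between the same arrays, as given above, and their part in these differences was not tested beyond the fits with each of them as a covariate. Within the first title series the 6 rising genes differed by -1.38 to -0.29 between unstimulated genotypes, with 1 DKO array against 2 WT arrays. After CpG they differed by -1.16 to -0.39 in the first title series, with 2 arrays a group. In the second they differed by -1.71 to -0.65, with 1 array a group. The WT array of the second series, WT CpG 3, was the highest of its group in all 6 genes. These are values without a test, and the share of all tested genes with such differences was not computed.

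Ifi204, Ifi205 and Dhx58 were lower in every DKO array than in every WT array of the same stimulation, in both states. This held for 2.03% of all tested genes, or 272 genes. The value for Ifi204 was nearly the same in both states, with differences of -1.44 and -1.35, and for Ifi205 they were -0.73 and -0.50.

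**Figure D3:**
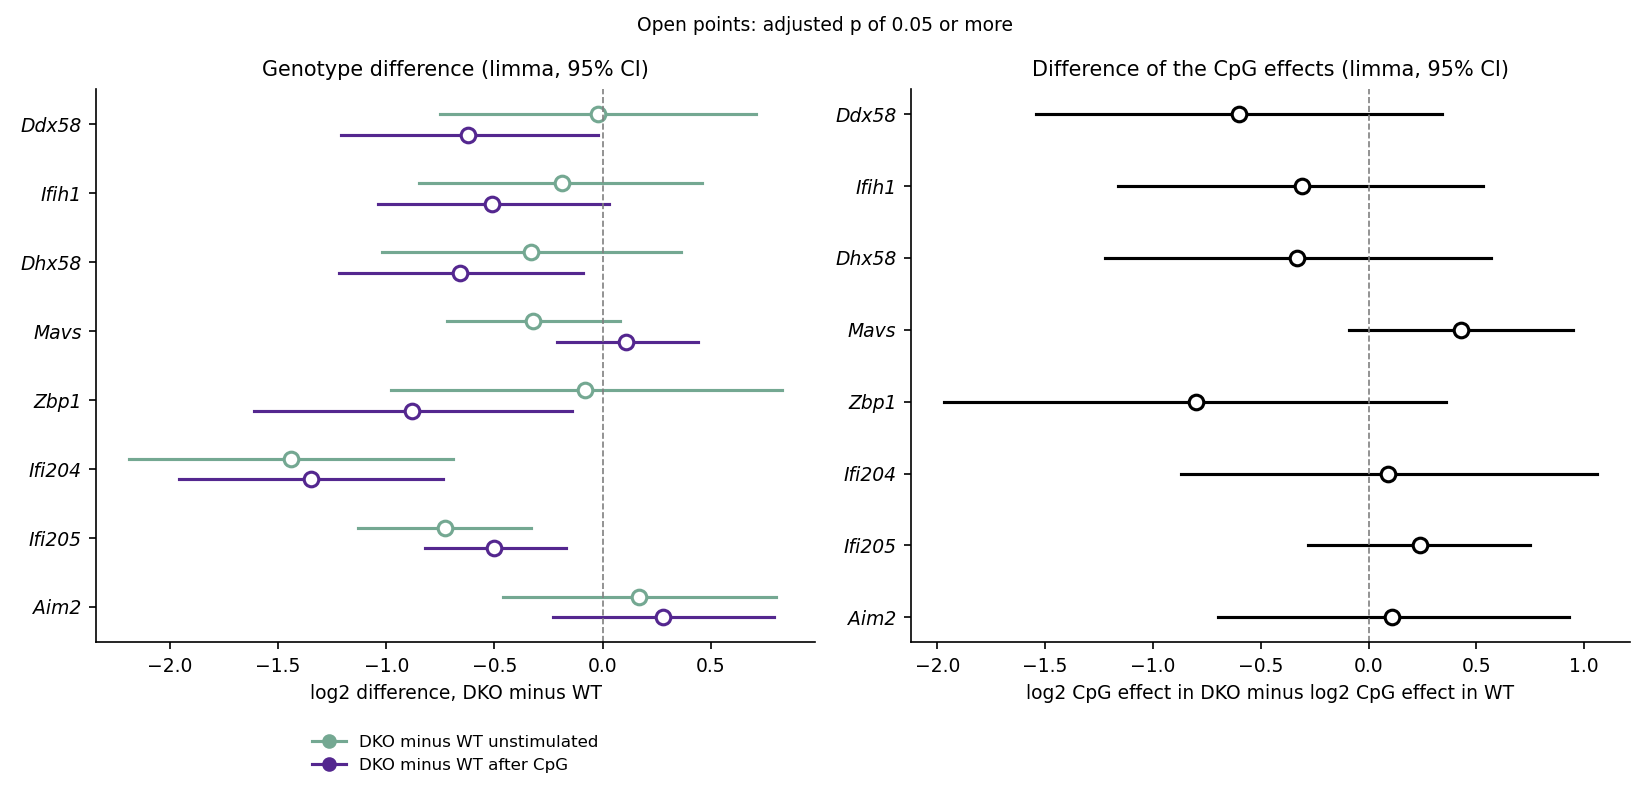
Left, log2 difference of DKO minus WT (x axis) for each sensor gene (y axis) in unstimulated DCs and after CpG; right, the CpG effect in DKO minus that in WT; bars are 95% confidence intervals from limma, and open points did not pass an adjusted p of 0.05. No gene passed in any of the 3 comparisons, and for Ifi204 and Ifi205 both intervals on the left lie below 0.

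The difference of the CpG effects asks whether loss of the receptors changed the response itself. None of the 8 sensors passed, where 0.00748% of tested genes did, and none had an unadjusted p under 0.05, where 5.65% of tested genes did (limma). The estimates were -0.80 for Zbp1 (interval -1.97 to 0.36), -0.60 for Ddx58 (-1.54 to 0.34), -0.33 for Dhx58 (-1.22 to 0.57) and -0.31 for Ifih1 (-1.16 to 0.53). Ifi204 had 0.09 (-0.87 to 1.06) and Ifi205 had 0.24 (-0.28 to 0.75), while Mavs had 0.43 (-0.09 to 0.95) and Aim2 had 0.11 (-0.70 to 0.93). For Ddx58, Ifih1, Dhx58, Zbp1 and Ifi204 the intervals hold CpG effects that differ 2-fold or more between genotypes, so such differences were not excluded by these arrays.

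Arrays of 1 group differed in a shared way over these genes. DKO CpG 2 was the lowest of its group in 6 of the 6 rising genes, as it was in 44.0% of the 1102 genes that rose in WT and in 29.1% of all tested genes. Its value lay below the mean of DKO CpG 1 and DKO CpG 3 by 1.45 for Zbp1, 1.04 for Dhx58, 0.99 for Ddx58, 0.93 for Ifi204, 0.74 for Ifih1 and 0.30 for Ifi205 on the log2 scale, whereas it differed by 0.03 for Mavs and -0.21 for Aim2. DKO CpG 1 was the highest of its group in all 6, and so was WT CpG 3 in its own. Among the 1102 genes that rose in WT, DKO CpG 1 was the highest in 50.4% and WT CpG 3 in 50.5%. Without DKO CpG 2 the difference between genotypes after CpG was -1.04 for Ifi204 and -0.40 for Ifi205 (limma, adjusted p = 0.210 and 0.424), in both cases still below 0. The other 4 moved by more than 1.5 times without that array, to -0.39 for Zbp1, -0.31 for Dhx58, -0.29 for Ddx58 and -0.26 for Ifih1.

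**Figure D4:**
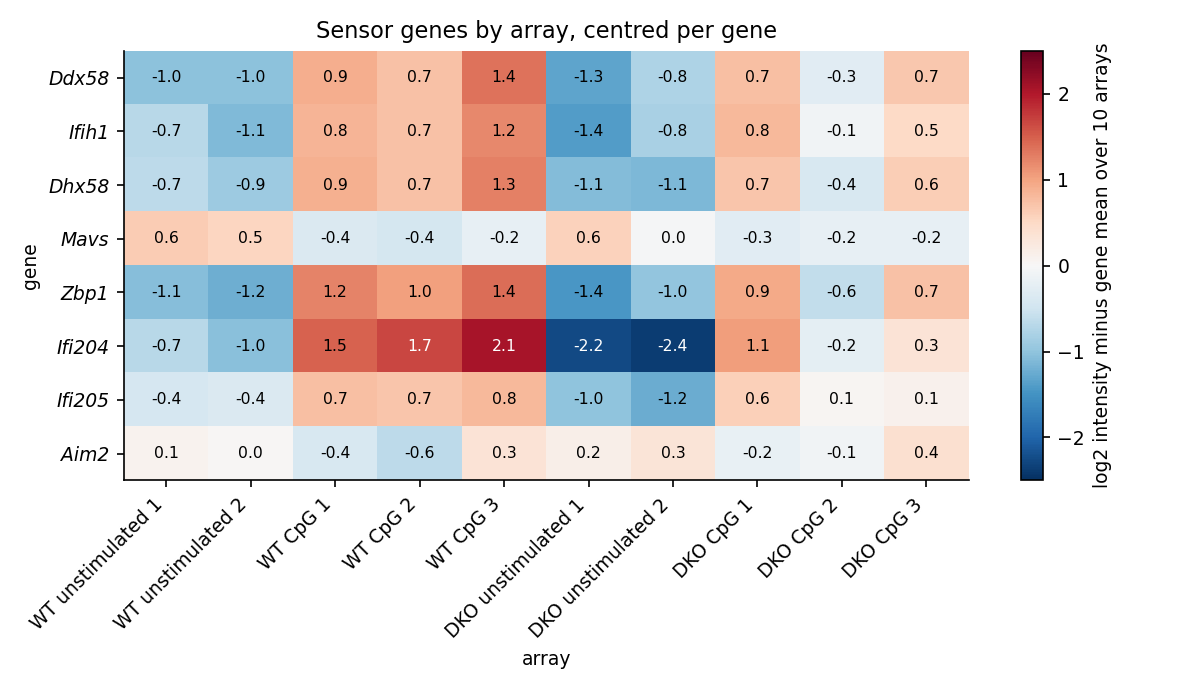
Log2 intensity minus the gene's mean over the 10 arrays (colour and printed value) for each sensor gene (rows) in each array (columns). The 6 rising genes are high in all WT CpG arrays and lower in DKO CpG 2 than in the other DKO CpG arrays, and Ifi204 is lowest in both DKO unstimulated arrays.

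The sensors could be compared by the shape of their values over the 10 arrays, as the root mean square difference of gene-centred log2 values, where 0 means the same shape and size. Ddx58 and Ifih1 differed by 0.15, Ddx58 and Dhx58 by 0.19, Ifih1 and Dhx58 by 0.19 and Ddx58 and Zbp1 by 0.22. Among the rising genes Ifi204 stood apart, since its values spanned a wider range and were lower in DKO. It lay at 0.63 from Zbp1, its nearest sensor, 0.74 from Ddx58 and 0.82 from Ifi205. The genes that did not rise lay further off, with Mavs at 1.81 and Aim2 at 1.68 from Ifi204, and Mavs and Aim2 differed by 0.39. These numbers describe 10 arrays in 4 groups and carry no test.

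The genes of nearest shape were taken from 12096 named genes. Ddx58 was nearest to Trim30a (0.14), a negative regulator of Toll-like receptor signalling, and Eif2ak2 (0.15), the kinase PKR that is activated by double-stranded RNA. Ifih1 was nearest to Parp14 (0.09), an ADP-ribosyltransferase, and Trim30a (0.13), and Dhx58 to Trim30a (0.14) and Rsad2 (0.14), which encodes the antiviral enzyme viperin. Zbp1 was nearest to Helz2 (0.13), a helicase, and Oasl2 (0.15), an oligoadenylate synthetase-like protein.

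For the DNA sensors the distances were 0.11 to 0.32. Ifi204 was nearest to Oasl1 at 0.29 and Oas1g at 0.32, both of the oligoadenylate synthetase family, and Ifi205 to Rap2b (0.16), a small GTPase, and Zhx2 (0.17), a transcriptional repressor. Mavs was nearest to Hsd3b7 (0.09), an enzyme of bile acid synthesis, and Ech1 (0.10), an enzyme of fatty acid oxidation. Aim2 was nearest to Rnf167 (0.11), a ubiquitin ligase, and H2-Oa (0.12), a chaperone subunit of MHC class II loading.

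Around the RIG-I-like receptors, 15 further genes of the pathway passed the test in WT DCs. Of 28 listed genes 27 were tested, and 11 rose and 4 fell, with a median log2 change of 0.31, where 8.24% of all tested genes rose and 13.3% fell. The share that fell was near that over all genes. Ikbke, the kinase IKKε downstream of Mavs, went from 6.40 and 5.83 to 8.58, 8.93 and 8.40, a change of 2.52 ± 0.34 (limma, adjusted p = 6.95e-04). Irf7, the interferon regulatory factor that amplifies interferon production, rose by 1.88 and Ddx60, a helicase, by 2.22, while Tank, a scaffold of the kinases, rose by 0.72. Irf3, a factor phosphorylated downstream of Mavs, changed by -0.29 and did not pass (limma, adjusted p = 0.312). Prkra, an activator of PKR, fell by 1.03, and Itch, a ubiquitin ligase that degrades Mavs, fell by 1.34. Irf7, Ddx60 and Irf3 were chosen after their values were seen.

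In DKO DCs 4 genes of this list rose (Ikbke by 1.61, Tank by 0.59, Traf6 and Mul1) and Prkra fell by 0.74, with a list median of 0.27, where 4.54% of all tested genes rose and 5.76% fell. The calls of Ikbke, Tank and Prkra depended on single arrays, while Traf6 and Mul1 were not recomputed this way. Without DKO unstimulated 1, Ikbke had 1.63 (limma, adjusted p = 0.0706), Tank 0.43 (0.135) and Prkra -0.70 (0.128), without DKO unstimulated 2, Ikbke had 1.6 (0.0949) and Prkra -0.78 (0.115), without DKO CpG 1, Prkra had -0.57 (0.0751), and without DKO CpG 2, Tank had 0.53 (0.0608) and Prkra -0.76 (0.0608). With the DKO arrays fitted alone, Ikbke (0.0746), Tank (0.0947) and Prkra (0.0984) were lost. Itch changed by -0.89 (limma, adjusted p = 0.0596), Irf7 by 1.12 (0.0928) and Ddx60 by 0.91 (0.332), none of which passed, although Itch passed without DKO CpG 3 (-1.0, adjusted p = 0.0395), with a block for the title series (-0.83, 0.0437), with a covariate for the Y-linked signal (0.0256) or the macrophage markers (0.0349) and after quantile normalization (0.0486). No gene of the list passed in either comparison of genotypes or in the difference of the CpG effects.

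The DNA-sensing genes around cGAS and STING moved in both directions. Of 17 tested genes 3 rose and 5 fell in WT DCs, with a median of -0.11, where 8.24% of all tested genes rose and 13.3% fell. Irgm1, an immunity-related GTPase, rose by 1.61, from 7.29 and 6.98 to 8.55, 8.66 and 9.03 (limma, adjusted p = 7.50e-04). Cgas, the enzyme that makes cyclic GMP-AMP on cytosolic DNA, rose by 0.93 ± 0.24 and Sting1, the receptor of that messenger, by 0.84 ± 0.16 (limma, adjusted p = 0.0200 and 0.00449). Of the DNA repair proteins that also bind cytosolic DNA, Prkdc fell by 1.21 and Xrcc6 by 0.93, while Xrcc5, the partner of Xrcc6, changed by -0.13 and did not pass (limma, adjusted p = 0.557). Polr3g, a subunit of RNA polymerase III, fell by 0.70. In DKO DCs Irgm1 rose by 1.15, and Prkdc, Xrcc6 and Polr3g fell by 0.87, 0.65 and 0.72, whereas Cgas (0.57, adjusted p = 0.174) and Sting1 (0.30, adjusted p = 0.278) did not pass (limma). The difference of the CpG effects was -0.54 for Sting1, with an interval of -1.04 to -0.03, and did not pass (limma, adjusted p = 0.858). Cgas, Sting1 and Xrcc5 were named after their values were seen. Without DKO unstimulated 1, Irgm1 had 1.0 (limma, adjusted p = 0.0739) and Xrcc6 -0.66 (0.0859), without DKO unstimulated 2, Prkdc had -0.63 (0.212) and Xrcc6 -0.65 (0.108), without DKO CpG 1, Prkdc had -0.70 (0.0851) and Xrcc6 -0.52 (0.0566), and without DKO CpG 2, Prkdc had -0.84 (0.0726). With the DKO arrays fitted alone, Irgm1 (0.0530), Prkdc (0.105), Xrcc6 (0.0887) and Polr3g (0.0527) were all lost.

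Other RNA-binding sensors and effectors rose in both genotypes. Of 15 tested genes 9 rose and none fell in WT DCs, with a list median of 2.07, where 8.24% of all tested genes rose and 13.3% fell. In DKO DCs 9 rose and none fell, with a list median of 1.34, where 4.54% of all tested genes rose and 5.76% fell. Ifit1, which binds RNA without a methylated cap, went from 7.77 and 6.67 to 10.60, 10.48 and 10.99 in WT DCs, a change of 3.47 ± 0.50 (limma, adjusted p = 9.02e-04). Oasl1 rose by 2.69 in WT and 2.71 in DKO, Oas1g by 2.81 and 2.57, and Eif2ak2 by 2.18 and 1.68. Ifit1 rose by 2.71 in DKO DCs, a call lost without either DKO unstimulated array (2.56 without the first and 2.87 without the second, limma, adjusted p = 0.0558 and 0.0507). The list median of DKO minus WT after CpG was -0.61, beside 0.01 over all genes, and none of the list passed in that comparison.

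Of the Ifi200 family beside the sensors above, 6 of 10 listed genes were tested, and all 6 rose in WT DCs, with a median of 1.72, where 8.24% of all tested genes rose and 13.3% fell. Ifi213 went from 6.52 and 5.80 to 7.89, 8.35 and 9.18, a change of 2.31 ± 0.49 (limma, adjusted p = 0.00734), and without WT unstimulated 2 it was 1.95 (adjusted p = 0.0847). Ifi207 rose by 1.41, Ifi209 by 1.59 and Mndal by 1.64, the last of which was 1.32 without WT unstimulated 2 (limma, adjusted p = 0.0765). In DKO DCs 2 of the 6 passed, where 4.54% of all tested genes rose and 5.76% fell. These were Ifi213 with 2.07 and Ifi207 with 1.07, while Ifi209 had 0.94 (limma, adjusted p = 0.0687) and Mndal 0.76 (adjusted p = 0.187). Both passed without DKO CpG 2, at 1.27 (limma, adjusted p = 0.00739) and 1.14 (0.0209). Ifi209 also passed with a block for the title series (0.98, 0.0413) or a covariate for the Y-linked signal (0.0402) or macrophage markers (0.0366). Ifi213 was lost without DKO unstimulated 1 (1.83, adjusted p = 0.131), DKO unstimulated 2 (2.30, 0.0888) or DKO CpG 1 (1.98, 0.0738), with the DKO arrays fitted alone (0.0726) and with trend and robust moderation (0.0654), and Ifi207 without DKO unstimulated 1 (0.87, 0.0865).

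In unstimulated DCs the DKO minus WT differences of these 6 relatives ran from -0.65 to 0.28 with a median of -0.07, against -1.44 for Ifi204 and -0.73 for Ifi205. After CpG they ran from -0.89 to -0.36 with a median of -0.76, and none passed in either state. The genes of this family are close in sequence and lie together on chromosome 1, and cross-hybridisation between their probes was not tested. The lists were searched for GAAANNGAAA alone, without the spacings of 1 and 3 bases. The promoters of 5 of these 6 genes held GAAANNGAAA, which occurred in 3.46% of all genes with promoter entries. Of the 5 sensor promoters 1 held it. It occurred in 5 of 13 genes with entries among the other RNA-binding sensors and effectors, 5 of 9 interferon genes, 2 of 24 RIG-I-like receptor signalling genes, 1 of 14 DNA-sensing genes, 1 of 8 nucleases and 0 of 9 partners of Aim2 and Zbp1.

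Of the partners of Aim2 and Zbp1, 4 of 10 tested genes rose and none fell in WT DCs, where 8.24% of all tested genes rose and 13.3% fell. Casp4, which encodes caspase-11, the sensor of cytosolic lipopolysaccharide, went from 8.60 and 8.19 to 10.94, 10.65 and 11.11, a change of 2.51 ± 0.18 (limma, adjusted p = 4.54e-05), and it rose by 2.26 in DKO DCs. Casp8, a caspase that restrains necroptosis, rose by 0.70, Gsdmd, the pore-forming protein of pyroptosis, by 0.69, and Mlkl, the executioner of necroptosis, by 0.63 in WT DCs. In DKO DCs these 3 changed by 0.43, 0.10 and 0.46 and did not pass (limma, adjusted p = 0.0737, 0.799 and 0.181). Pycard, the adaptor of the Aim2 inflammasome, changed by -0.41 in WT (limma, adjusted p = 0.0537) and Ripk3, the kinase downstream of Zbp1, by -0.02 (adjusted p = 0.957). Both were named after their values were seen. Casp8 was lost in WT without WT unstimulated 2 (0.66, limma, adjusted p = 0.0534) and passed in DKO without WT CpG 3 (0.43, 0.0471), with a block for the title series (0.46, 0.0372) and with a covariate for neutrophil markers (0.49, 0.0395). Gsdmd was lost without WT unstimulated 1 (0.79, adjusted p = 0.0631), WT unstimulated 2 (0.59, 0.147), WT CpG 1 (0.69, 0.0517) or WT CpG 3 (0.59, 0.0599). Mlkl was lost without any one of WT unstimulated 1 and 2, WT CpG 1 and 3, DKO unstimulated 1 and 2 and DKO CpG 2, with changes of 0.42 to 0.84.

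Of 12 tested nucleases and related genes 4 rose and 1 fell in WT DCs, where 8.24% of all tested genes rose and 13.3% fell. Adar, which edits double-stranded RNA so that Ifih1 does not detect it, rose by 1.07 in WT and 0.75 in DKO DCs. Isg20, an RNA exonuclease, rose by 2.17 in WT and had 1.26 in DKO (limma, adjusted p = 0.0633). Rnaseh2b, a subunit of the enzyme that removes ribonucleotides from DNA, rose by 0.78 and 0.64. Pld4, an exonuclease of endosomal single-stranded DNA that limits Tlr9, fell by 0.76 in WT, from 11.67 and 11.66 to 10.97, 10.82 and 10.92, and by 0.41 in DKO (limma, adjusted p = 0.0437), a call lost with any 1 of the arrays left out except DKO CpG 3 (-0.43 to -0.35 without the others). Without DKO unstimulated 1, DKO unstimulated 2 or DKO CpG 1, Adar had 0.68, 0.82 and 0.62 (limma, adjusted p = 0.135, 0.100 and 0.0840) and Rnaseh2b 0.62, 0.66 and 0.66 (0.102, 0.104 and 0.0566). Rnaseh2b was also lost in WT without WT unstimulated 2 (0.55, adjusted p = 0.0599), and Isg20 passed in DKO without DKO CpG 2 (1.70, 0.00607), with a block for the title series (1.32, 0.0355) and with a covariate for the Y-linked signal (0.0432), neutrophil markers (0.0272) or macrophage markers (0.0384). With the DKO arrays fitted alone, Adar (limma, adjusted p = 0.0994), Rnaseh2b (0.0556) and Pld4 (0.151) were lost.

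Of 10 tested interferon genes only Ifnb1 was called in WT DCs, a share near the 8.24% of all tested genes that rose. Ifnb1 exceeded the array median by 0.31 in WT CpG 1, 0.21 in WT CpG 2 and 0.06 in DKO CpG 1, and in no other array. That it was tested at all thus depended on stimulated arrays, where it was high. It measured 4.16 and 3.98 in WT unstimulated DCs and 5.87, 5.74 and 4.55 in WT CpG DCs, at or below the array medians in 3 of the 5 arrays, with a change of 1.31 ± 0.40 (limma, adjusted p = 0.0405). That call was lost with no filter on low values (adjusted p = 0.0530), with trend and robust moderation (0.0601) and without any one of WT unstimulated 1 and 2, WT CpG 1 and 2, DKO unstimulated 1 and 2 and DKO CpG 2, with changes of 1.07 to 1.40. In DKO DCs Ifnb1 measured 3.90 and 3.96 before and 5.60, 5.07 and 4.31 after CpG, a change of 1.06 (limma, adjusted p = 0.126), which passed without DKO CpG 3 (1.40, adjusted p = 0.0286) and with a block for the title series (0.93, 0.0402). Tlr9, the receptor for CpG, changed by 0.43 in WT and 0.29 in DKO DCs and did not pass (limma, adjusted p = 0.138 and 0.375).

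**Figure D5:**
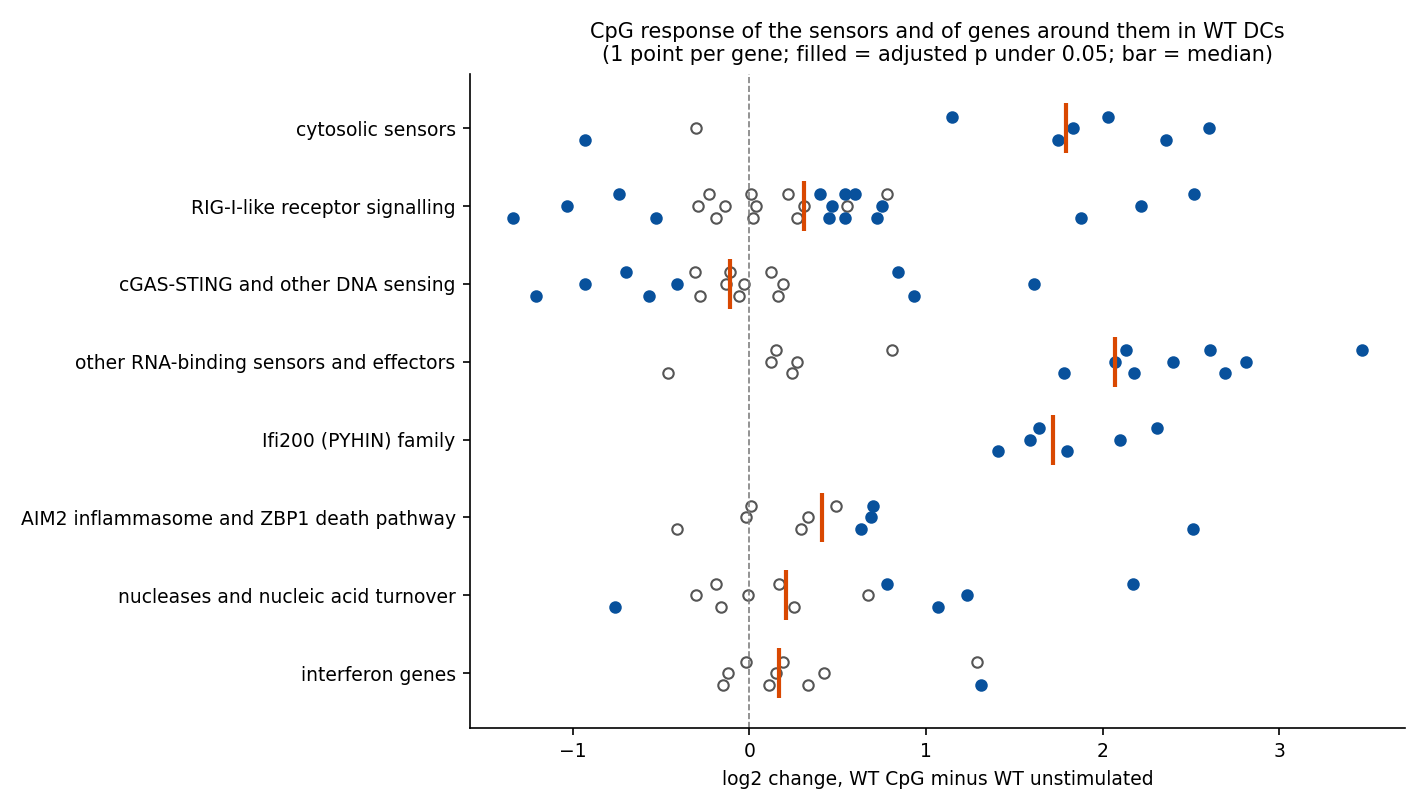
Log2 change after CpG in WT DCs (x axis) of the 8 sensors and of the tested genes of each list (y axis); each point is a gene, filled where the adjusted p was under 0.05, and the bar is the list's median. Medians were 1.79 for the sensors, 2.07 for other RNA-binding sensors and effectors and 1.72 for the Ifi200 family, and between -0.11 and 0.41 for the other lists.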

How the data were processed

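Log2 intensities per probe set, 1 column per array, were deposited; per the submitters' processing notes the authors made them with RMA in Affymetrix Expression Console. RMA corrects background, equalises the arrays and summarises probes. The sources used here do not give tool versions, genome build or annotation, nor whether 1 run covered all arrays. No detection calls or read depth apply, and the number of arrays limits the precision.

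Of 41345 probe sets, 23521 had 1 gene symbol in GEO's platform annotation, 1814 had several and 16010 had none. Those with 1 symbol covered 22180 genes, with 23328 probe sets matched to current names (GRCm38.p6, names and chromosomes only). A gene was tested where it exceeded the array median in at least 2 of 10 arrays, which left 13371. A model of 4 group means was fitted with limma 3.58.1 (lmFit, eBayes) in R 4.3.3, with 5 two-sided contrasts, each adjusted by Benjamini-Hochberg over the genes tested, and called under 0.05. Intervals are 95%. The code was tested on simulated data.

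All 8 sensor genes with values were named. From each list the text named up to 4 genes with the smallest p among those called in WT DCs, from each sensor its 2 nearest genes, and Tlr9, C3ar1 and C5ar1. The sensors and the lists were chosen with earlier results of these data known. Alternatives changed the filter, the scaling, the moderation, the arrays in the fit and the handling of several probe sets, or added the title series, Y-linked signal or marker levels. Figures used matplotlib 3.10.9.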

Additional observations from a re-analysis of the deposited data

How the results depend on the processing

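In WT DCs the 7 calls among the sensors held in every alternative tried and with any 1 array left out. In DKO DCs 3 of the 6 calls remained when only the DKO arrays were fitted (6 in the main analysis), and 2 to 6 with 1 array left out. Where this left an arm with 1 array, that array was assumed to vary like the other groups. Between unstimulated genotypes 1 sensor, Ifi205, was called with the Y-linked signal as a covariate and 0 otherwise. After CpG 1 sensor (Ifi204) was called with the title series as a block, 2 (Ifi204 and Ifi205) with the Y-linked signal, and 0 to 2 with 1 array left out, against 0 in the main analysis.

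Signs turned for small differences, and the cause was not tested. With a covariate for neutrophil markers, Aim2 was 0.04 for CpG in DKO, -0.56 between unstimulated genotypes and -0.39 after CpG. With one for macrophage markers Aim2 was -0.02, and with the title series -0.11, between unstimulated genotypes. With the Y-linked signal the unstimulated difference was 0.22 for Ddx58 and 0.16 for Zbp1, and Mavs was -0.03 after CpG. With 1 array left out the unstimulated difference spanned -0.29 to 0.26 for Ddx58, -0.49 to 0.11 for Ifih1 and -0.30 to 0.15 for Zbp1. The difference of the CpG effects spanned -0.52 to 0.02 for Dhx58, -0.24 to 0.40 for Ifi204 and -0.09 to 0.40 for Aim2. 

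Over all genes, calls for CpG in WT fell from 2885 to 1277 without WT unstimulated 2, those for CpG in DKO from 1377 to 402 with only its groups and to 423 without DKO unstimulated 2. Calls between genotypes after CpG went from 16 to 800 with the Y-linked signal, 296 with the title series, 267 without DKO CpG 1 and 2 without DKO CpG 2, and between unstimulated genotypes from 1 to 407 with the Y-linked signal. No paired analysis was possible because the titles carry no replicate numbers shared between groups.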
